A study of Homo sapiens with 11 samples.

Results

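The MEF2 transcription factors MEF2A, MEF2C and MEF2D, the class IIa histone deacetylases HDAC4, HDAC5, HDAC7 and HDAC9, and the kinase SIK3 were followed in a human leukemia cell line under Menin inhibition. They were chosen by gene symbol as a family of factors with their repressors and a kinase that acts on those repressors, and are 8 of the 38557 genes in the count tables. RNA sequencing had been performed on MOLM-13, an acute myeloid leukemia (AML) line whose KMT2A gene is rearranged. The cultures received, for 72 h, either the diluent DMSO (4 libraries), 1 µM MI-503 (4 libraries), or the same MI-503 dose plus PR-957 at 100 nM (3 libraries, replicates 1, 2 and 4), here called the combination. MI-503 inhibits Menin, a partner that KMT2A fusion proteins need to activate their target genes, and PR-957 (ONX-0914) inhibits PSMB8, a catalytic subunit of the immunoproteasome. No library received PR-957 alone, so its effect could be compared only on top of MI-503. All groups are cultures of 1 established cell line, and the labels do not say whether replicates were separate cultures, so the p-values measure the spread between these libraries, which may be technical.

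MEF2 factors are MADS-box transcription factors that bind an AT-rich element, the MEF2 box, and are known from muscle, neurons and blood cells. MEF2C is expressed in many KMT2A-rearranged leukemias. Class IIa deacetylases have little deacetylase activity of their own: they bind MEF2 factors in the nucleus and recruit corepressor complexes with HDAC3 to keep the target genes silent. Salt-inducible kinases such as SIK3, protein kinase D and calcium/calmodulin-dependent kinases phosphorylate them, after which 14-3-3 proteins bind them and they leave the nucleus.

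Between 18.9 M and 41.2 M fragments were counted per library (M, mega), and 14683 genes were tested, all 8 members among them, with between 366 and 25742 fragments per member and library. Levels are given as CPM, counts scaled to a common library total with TMM factors. The tested myeloid blast markers CD33, FLT3, SPI1, PTPRC and MPO were present, with a list total of 786 to 944 CPM in every library. ANPEP was at 1.25 CPM or less. Single blast markers moved within that total. With MI-503, 4 of the 5 tested were called higher and FLT3 lower (22% and 29.3% of all tested genes were). FLT3 was at 324 ± 11.3, 230 ± 2.56 and 193 ± 23.5 CPM in DMSO, MI-503 and the combination. MPO was at 114 ± 16.9, 216 ± 10.6 and 130 ± 26.85 CPM in the same order. T cell, erythroid and muscle markers summed to at most 0.184 CPM, and B cell markers to at most 3.88 CPM, with MS4A1 at 0. Markers of monocytes and granulocytes also moved with treatment. With MI-503, 6 of the 6 tested were called higher (22% of all tested genes were), and 5 of 6 with the combination against DMSO (31.7%). CD14, the untested gene of this list, was at 0.48 CPM or less in every library. The list summed to 151 to 174 CPM in DMSO, 521 to 534 CPM in MI-503 and 794 to 2733 CPM in the combination. Most of that was LYZ, the lysozyme gene of myeloid cells. FCGR1A, an Fc receptor gene on the same list, fell from 36.3 ± 1.98 CPM in MI-503 to 25.1 ± 5.13 CPM in the combination (−0.53, SE 0.10, edgeR adjusted p = 2.34e-04). Of the endothelial, epithelial and fibroblast markers, which summed to 46.6 to 56.3 CPM in DMSO, 106.6 to 112.4 CPM in MI-503 and 126.1 to 184.0 CPM in the combination, nearly all was PECAM1, an adhesion molecule of endothelium and leukocytes, which rose from 50.05 ± 3.98 to 108.9 ± 2.37 CPM with MI-503. COL1A1 stayed under 1 CPM in every library, and EPCAM was at 0 in DMSO and MI-503. Combination replicate 1 stood apart: 31 of 10041 compared genes differed over 2-fold from its group, against at most 10 in any other library, and LYZ was at 599 CPM there and at 1812 and 2513 CPM in the other combination libraries. The part of these shifts in the results was not tested, and in bulk RNA fewer cells of a type and less RNA per cell cannot be told apart.

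Compared per kilobase of exons, MEF2D was the most abundant member in DMSO. It stood at 87.9 ± 2.37 CPM per kilobase (SD, n = 4), at percentile 95.9 of all tested genes, followed by MEF2C at 22.1 ± 1.08 (percentile 82.1). HDAC5 came next at 14.9 ± 1.04 CPM per kilobase, then HDAC7 at 9.60 ± 0.26 and SIK3 at 5.75 ± 0.06. At the low end were MEF2A at 2.21 ± 0.04, HDAC4 at 2.00 ± 0.06 and HDAC9 at 1.84 ± 0.09 CPM per kilobase, and the libraries of HDAC4 and HDAC9 overlapped. Under MI-503, MEF2C stood below HDAC5, HDAC7 and SIK3, at 5.65 ± 0.26 CPM per kilobase (n = 4) against 6.13 ± 0.10 for SIK3. Under the combination, the levels were 4.06 ± 0.69 for MEF2C and 7.04 ± 0.54 CPM per kilobase for SIK3 (n = 3).

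A MEF2 box, the site that MEF2 factors themselves bind, was looked for in the RefSeq promoter windows of the members, which span 250 bases before to 50 bases after each annotated start. The box was searched as its palindromic consensus of 10 bases, so that a single scan covers both strands. It was present in 1 of 3 windows of MEF2A, 1 of 7 of MEF2C and 1 of 5 of HDAC9, and absent from the single windows of MEF2D, HDAC7 and SIK3 and from the 5 of HDAC4. No window was used for HDAC5. Over all 35116 windows, 2.99% held a box. The members' boxes are printed below with those of JUN and KLF2, members of a list of known MEF2 targets described further on, because the box is the element that MEF2 factors recognise. Each stretch runs 5′ to 3′ on the strand of its gene, in build GRCh38.p14, with the box in capitals, and regions are chr15:99565921-99565983 (plus strand), chr5:88824470-88824559 (minus), chr7:18086777-18086826 (plus), chr1:58784053-58784142 (minus) and chr19:16324666-16324755 (plus) in the order shown.
MEF2A: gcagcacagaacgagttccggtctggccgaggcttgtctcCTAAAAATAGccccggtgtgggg
MEF2C: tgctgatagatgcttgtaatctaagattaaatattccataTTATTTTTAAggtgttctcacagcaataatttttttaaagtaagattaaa
HDAC9: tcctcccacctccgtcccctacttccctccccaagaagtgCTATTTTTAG
JUN: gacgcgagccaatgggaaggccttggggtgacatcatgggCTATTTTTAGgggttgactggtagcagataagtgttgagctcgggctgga
KLF2: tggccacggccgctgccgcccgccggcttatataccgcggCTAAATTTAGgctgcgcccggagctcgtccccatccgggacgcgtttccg

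The MEF2C box lies 175 bases before an alternative start inside the span of the gene, and the HDAC9 box runs across the first bases of the gene. HDAC9 and JUN carry the same box. A match is a description of the sequence only, and its absence says no more than that these letters are not in the window.

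MEF2C, the MEF2 factor of lymphoid and myeloid progenitors, lies on chromosome 5 from 88717117 to 88904105 (hg38, minus strand). It stood at 213.9, 204.2, 190.1 and 205.9 CPM in DMSO replicates 1 to 4, at 48.5, 53.5, 52.6 and 53.2 CPM in MI-503, and at 44.2, 36.2 and 31.7 CPM in the combination. No library of 1 group fell inside the range of another, and the highest combination library lay below the lowest MI-503 library. The drop with MI-503 was 3.92-fold, or −1.97 on the log2 scale (SE 0.07, edgeR adjusted p = 5.12e-12), rank 30 from the lowest of all tested genes. With the combination it was 5.41-fold, or −2.44 (SE 0.08, edgeR adjusted p = 6.51e-13). Adding PR-957 to MI-503 lowered MEF2C by a further 27.6%, or −0.47 on the log2 scale (SE 0.08, edgeR adjusted p = 2.02e-04). Without combination replicate 1 this step was −0.65.

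MEF2D, the broadly expressed member of the family, lies on chromosome 1 from 156463727 to 156500840 (minus strand). Its levels were 866, 833, 873 and 828 CPM in DMSO, 673, 697, 743 and 729.6 CPM in MI-503, and 608, 650.4 and 712 CPM in the combination. Every treated library was below every DMSO library, while MI-503 and the combination overlapped. MEF2D fell by 0.26 on the log2 scale with MI-503 (SE 0.05, edgeR adjusted p = 3.35e-04) and by 0.37 with the combination (SE 0.05, edgeR adjusted p = 1.12e-05). The step from MI-503 to the combination, −0.11 with a 95% interval from −0.23 to −0.0002, did not pass the test (edgeR adjusted p = 0.0926).

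MEF2A, expressed in most tissues, lies on chromosome 15 from 99565417 to 99716488 (plus strand). It was at 29.7, 28.9, 29.9 and 29.0 CPM in DMSO, at 29.3, 29.2, 30.02 and 29.2 CPM in MI-503, and at 30.8, 25.04 and 27.8 CPM in the combination. The groups overlapped in all comparisons. Its log2 fold change was 0.00 with MI-503 (95% interval −0.12 to 0.13, edgeR adjusted p = 0.979) and −0.07 with the combination (−0.20 to 0.07, edgeR adjusted p = 0.377).

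**Figure D1:**
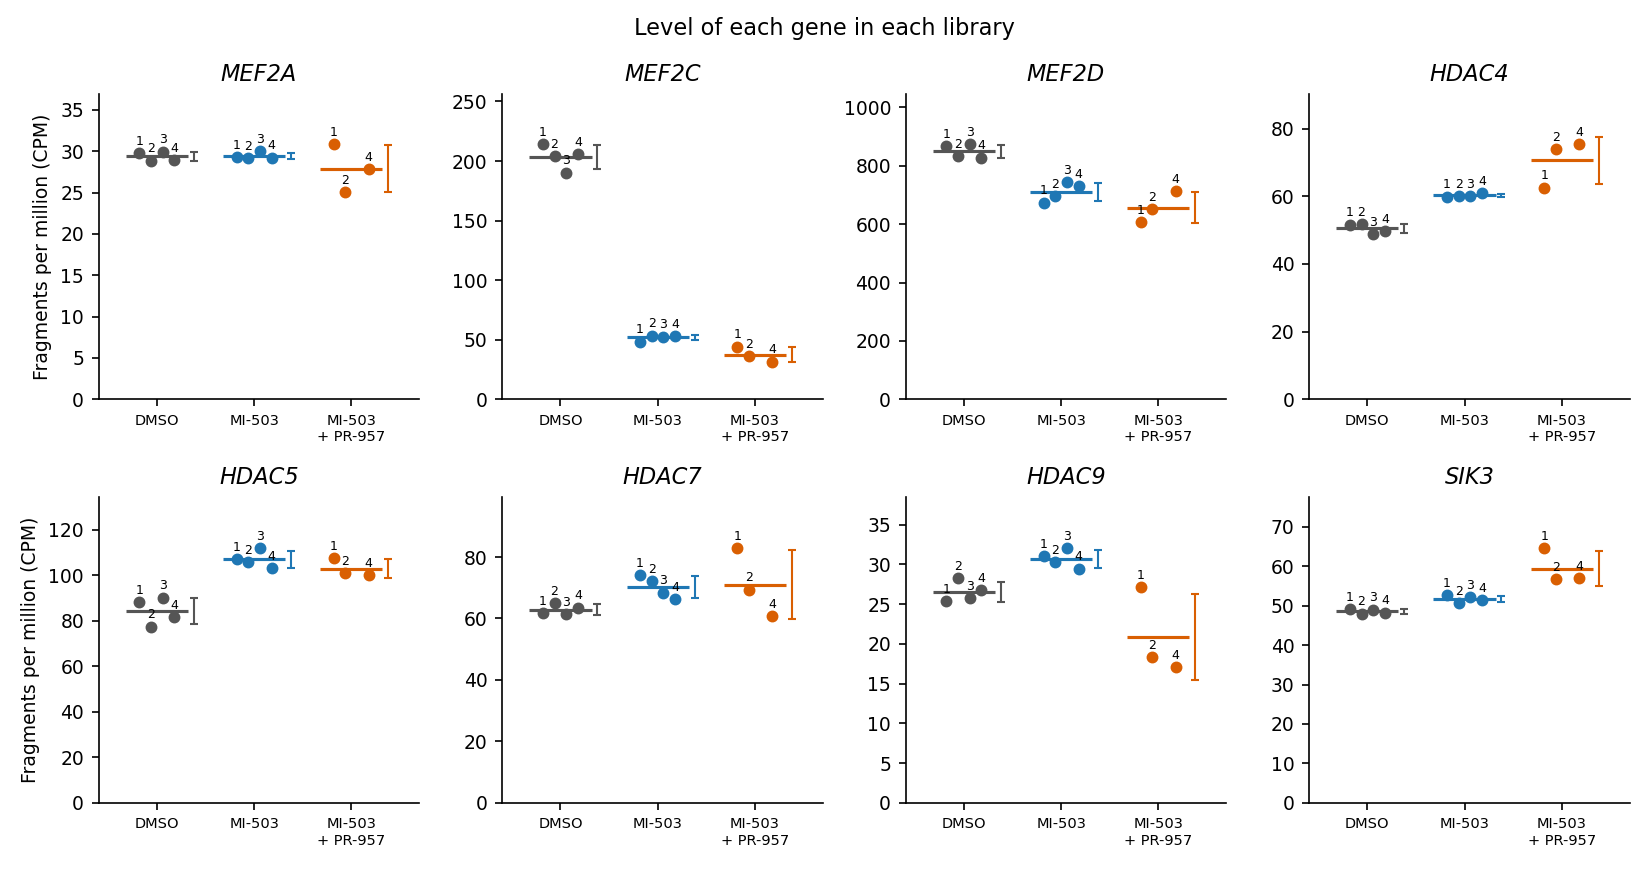
Level of each gene in CPM (vertical axes, starting at 0) in the 4 DMSO, 4 MI-503 and 3 combination libraries. Points are libraries with their replicate number, horizontal lines are group means and bars to the right are ± 1 SD. MEF2C falls from 190.1 to 213.9 CPM in DMSO to 48.5 to 53.5 CPM in MI-503, MEF2A stays between 25.04 and 30.8 CPM, and HDAC9 in the combination spreads from 17.1 to 27.1 CPM.

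The fall of MEF2C was larger than that of its relatives in the same libraries. The log2 ratio of MEF2C to MEF2A counts per kilobase was 3.38, 3.35, 3.20 and 3.36 in DMSO, 1.25, 1.41, 1.34 and 1.39 in MI-503, and 1.05, 1.06 and 0.72 in the combination. This ratio does not depend on library scaling, and no 2 groups overlapped. It fell by 1.97 with MI-503, by 2.38 with the combination and by 0.41 between them, each at the smallest p the design allows in an exact permutation test (two-sided, p = 0.0286, adjusted p = 0.0343 over 6 tests). Against MEF2D the fall was 1.71 with MI-503 and 2.08 with the combination (exact permutation test, p = 0.0286, adjusted p = 0.0343 for both). Between MI-503 and the combination the ratio to MEF2D differed by −0.37, which did not pass (exact permutation test, p = 0.0857), and by −0.20 without combination replicate 4. These contrasts share libraries and are not independent of each other. The ratios were chosen with the MEF2C result of these data known, so their p-values describe that fall and add no separate support.

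Summed per kilobase over MEF2A, MEF2B, MEF2C and MEF2D, the family stood at 112.5 ± 2.33 CPM per kilobase with DMSO (n = 4), 81.6 ± 3.42 with MI-503 (n = 4) and 74.7 ± 4.73 with the combination (n = 3). The share of MEF2C in that sum was 19.7% ± 0.98 in DMSO, 6.92% ± 0.23 in MI-503 and 5.49% ± 1.26 in the combination. MEF2D made up 78.2% ± 0.96, 90.05% ± 0.30 and 90.9% ± 1.55 in the same order. MEF2A accounted for 1.97% ± 0.02, 2.72% ± 0.10 and 2.82% ± 0.41. MEF2B, the remaining member of the family and not among the 8 genes, was at 0.28 ± 0.06 CPM in DMSO, 0.36 ± 0.11 CPM in MI-503 and 0.89 ± 0.29 CPM in the combination. It made up at most 1.14% of the family sum in any library. It passed the count filter only with its combination libraries included, so no test of its higher level there is given. MEF2B rested on 4 to 12 fragments in each DMSO and MI-503 library and 22 to 27 in each combination library. BORCS8-MEF2B, annotated as a readthrough, averaged 0.24, 0.32 and 0.34 CPM in the 3 groups. Exon bases shared by BORCS8-MEF2B and MEF2B were not measured. Fragments overlapping several genes were left out, so the MEF2B level may be too low.

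**Figure D2:**
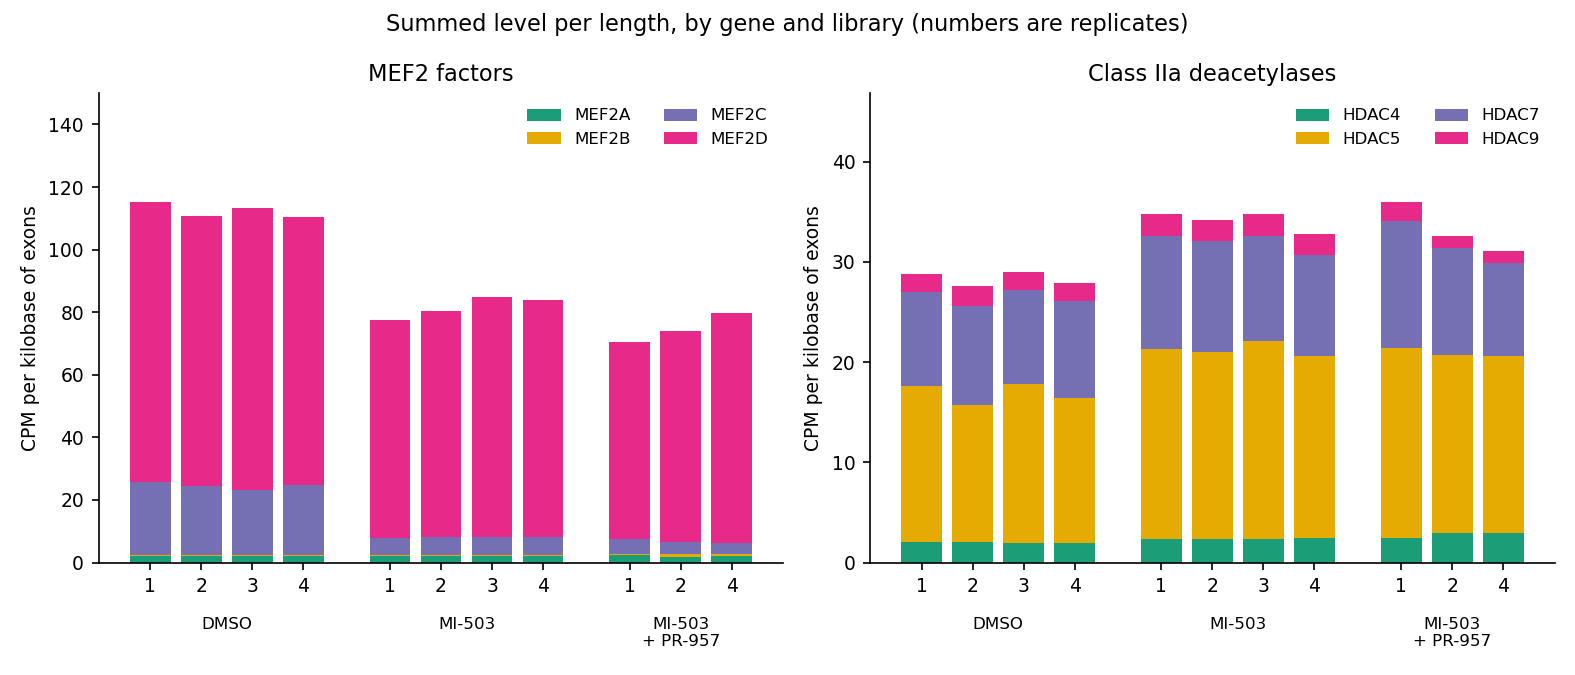
Level per length (CPM per kilobase of exons, stacked, vertical axes starting at 0) of the MEF2 factors, left, and the class IIa deacetylases, right, in each library, numbered by replicate. The MEF2 sum falls from 112.5 in DMSO to 81.6 in MI-503 while MEF2D keeps the largest share, and HDAC5 is the largest part of the deacetylase sum in every library.

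HDAC4, which binds and represses MEF2 factors, lies on chromosome 2 from 239048168 to 239401647 (minus strand). It was at 51.6, 51.8, 48.9 and 49.8 CPM in DMSO, 59.9, 60.1, 60.04 and 61.0 CPM in MI-503, and 62.5, 74.0 and 75.3 CPM in the combination. No 2 groups overlapped, and the combination was highest. HDAC4 rose by 0.25 on the log2 scale with MI-503 (SE 0.05, edgeR adjusted p = 8.38e-04) and by 0.48 with the combination (SE 0.06, edgeR adjusted p = 1.31e-06). The step from MI-503 to the combination was 0.22 (SE 0.06, edgeR adjusted p = 0.00369). That step was lost without combination replicate 2 (0.15, edgeR adjusted p = 0.0733) or replicate 4 (0.13, edgeR adjusted p = 0.0814).

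HDAC5, the most abundant class IIa deacetylase here, lies on chromosome 17 from 44076753 to 44123651 (minus strand). Its levels were 88.03, 77.4, 90.2 and 81.6 CPM in DMSO, 107, 106, 112 and 103 CPM in MI-503, and 108, 101 and 99.97 CPM in the combination. All treated libraries were above all DMSO libraries, and the treated groups overlapped. HDAC5 rose by 0.34 with MI-503 (SE 0.05, edgeR adjusted p = 2.33e-05) and by 0.29 with the combination (SE 0.05, edgeR adjusted p = 1.59e-04). Between the treated groups the change was −0.06 (95% interval −0.17 to 0.06, edgeR adjusted p = 0.420).

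HDAC7, known from thymocytes, B cells and endothelium, lies on chromosome 12 from 47782722 to 47820612 (minus strand). It was at 61.7, 65.0, 61.4 and 63.5 CPM in DMSO, 74.1, 72.2, 68.4 and 66.4 CPM in MI-503, and 83.0, 69.4 and 60.8 CPM in the combination. The MI-503 libraries all lay above the DMSO libraries, but the combination spanned both. Its change with MI-503 was 0.16 and did not pass (SE 0.07, edgeR adjusted p = 0.0718), although it passed in 10 of 19 alternative fits. With the combination HDAC7 was called higher at 0.18 (SE 0.08, edgeR adjusted p = 0.0470), a call that was lost in 13 of 19 alternative fits. Leaving out any single DMSO or MI-503 library lost it (edgeR adjusted p between 0.0509 and 0.0996), as did leaving out combination replicate 2 (0.20, edgeR adjusted p = 0.0587) or replicate 1 (0.06, edgeR adjusted p = 0.335). The 0.02 between MI-503 and the combination (95% interval −0.14 to 0.18, edgeR adjusted p = 0.840) turned to −0.14 without that library (edgeR adjusted p = 0.0397).

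HDAC9, a repressor of MEF2 known from muscle, lies on chromosome 7 from 18086825 to 19002416 (plus strand). It was at 25.4, 28.3, 25.8 and 26.8 CPM in DMSO, 31.1, 30.3, 32.1 and 29.5 CPM in MI-503, and 27.1, 18.4 and 17.1 CPM in the combination. MI-503 libraries were above all others, and combination replicates 2 and 4 were below all others, with replicate 1 inside the DMSO range. HDAC9 fell from MI-503 to the combination by 0.53 (SE 0.11, edgeR adjusted p = 8.91e-04), and by 0.82 without combination replicate 1 (edgeR adjusted p = 1.04e-09). Against DMSO the combination was lower by −0.32 (SE 0.11, edgeR adjusted p = 0.0200), −0.57 without that replicate, and this call was lost without combination replicate 2 (−0.25, edgeR adjusted p = 0.0885), without replicate 4 (−0.19, edgeR adjusted p = 0.111) or without DMSO replicate 2 (−0.29, edgeR adjusted p = 0.0506). The change of 0.21 with MI-503 did not pass (SE 0.10, edgeR adjusted p = 0.0989), although it passed in 7 of 19 alternative fits.

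Summed per kilobase, the 4 class IIa deacetylases summed to 28.3 ± 0.67 CPM per kilobase in DMSO, 34.1 ± 0.96 in MI-503 and 33.2 ± 2.52 in the combination. All MI-503 libraries, from 32.8 to 34.8, and all combination libraries, from 31.1 upward, were above the DMSO range of 27.6 to 29.0 CPM per kilobase. HDAC5 made up 52.5% ± 2.43 of this sum in DMSO and HDAC7 33.9% ± 1.71. The share of HDAC9 was 6.52% ± 0.46 in DMSO, 6.25% ± 0.11 in MI-503 and 4.32% ± 0.79 in the combination, whereas that of HDAC4 was 7.07% ± 0.31, 7.0% ± 0.26 and 8.48% ± 1.43.

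SIK3, a salt-inducible kinase that phosphorylates class IIa deacetylases, lies on chromosome 11 from 116843410 to 117098453 (minus strand). It was at 49.1, 48.0, 49.0 and 48.2 CPM in DMSO, 52.6, 50.7, 52.2 and 51.4 CPM in MI-503, and 64.6, 56.7 and 56.9 CPM in the combination. The groups formed 3 separate steps, with combination replicate 1 highest. SIK3 rose with the combination by 0.30 against DMSO (SE 0.05, edgeR adjusted p = 6.71e-05) and by 0.21 against MI-503 (SE 0.05, edgeR adjusted p = 0.00288). Without combination replicate 1 the second value was 0.11 (edgeR adjusted p = 0.0506). The MI-503 libraries lay above all DMSO libraries, but the difference of 0.09 did not pass (SE 0.05, edgeR adjusted p = 0.126). It passed in 7 of 19 alternative fits.

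Among the 8 genes, 2 were called higher and 2 lower with MI-503 against DMSO, where 51.4% of all tested genes were called, 22% higher and 29.3% lower. With the combination against DMSO, 4 were called higher and 3 lower, against a background of 64.5%, with 31.7% higher and 32.8% lower. Between the combination and MI-503 the counts were 2 higher and 2 lower, and 47.4% of all tested genes were called, 23.6% higher and 23.8% lower. Groups did not overlap for 7 of the 8 genes with MI-503, where this held for 50.3% of tested genes, for 5 with the combination against DMSO (60.5%) and for 4 between the treated groups (47.6%). Outside MEF2C the largest fitted change was −0.53, for HDAC9 between the treated groups. A fall of at least 2-fold, as for MEF2C against DMSO, was called for 1.34% of tested genes with MI-503, 3.34% with the combination and 1.4% between the treated groups, where no member reached it. The comparisons share libraries, so their counts are not independent.

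**Figure D3:**
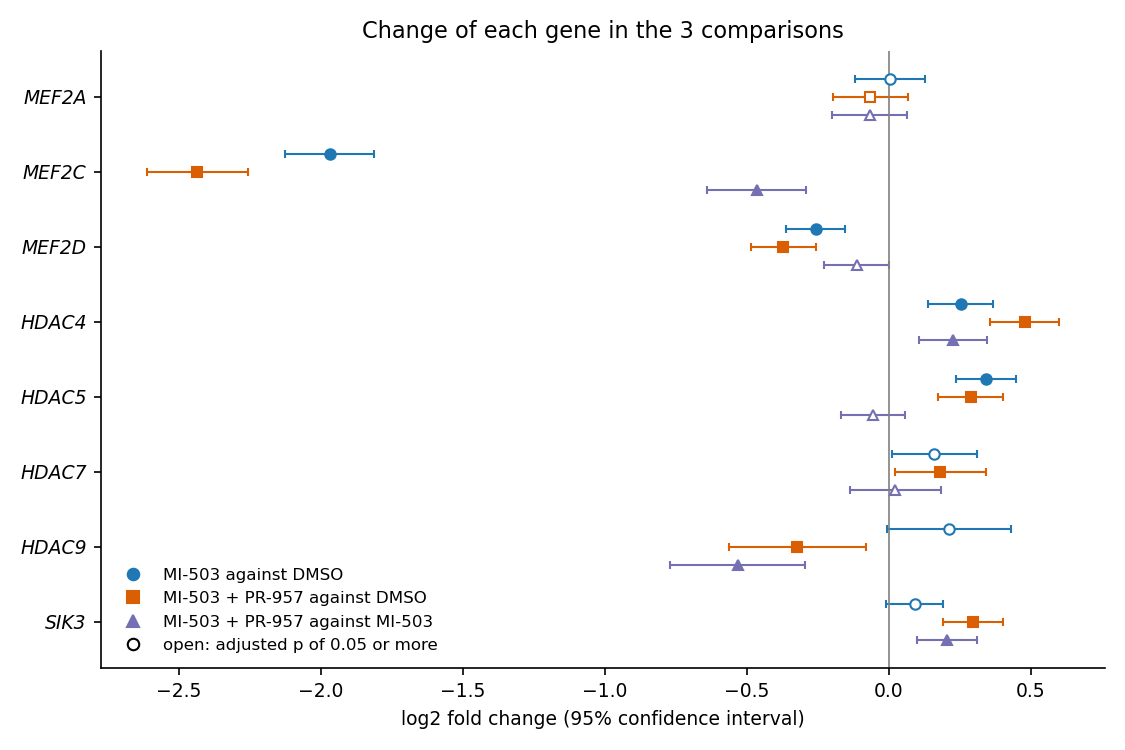
Fitted log2 fold change (horizontal axis) of each gene in the 3 comparisons, with 95% confidence intervals. Filled markers passed an edgeR adjusted p of 0.05. MEF2C stands alone at −1.97 and −2.44, HDAC9 has opposite signs with MI-503 (0.21, not called) and the combination (−0.32), and every other value lies within −0.37 and 0.48 except MEF2C (−0.47) and HDAC9 (−0.53) between the treated groups.

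With combination replicate 1 left out of the comparison between the treated groups, 4 members were called lower, since MEF2A (−0.18, edgeR adjusted p = 0.0193) and HDAC7 joined MEF2C and HDAC9, and only HDAC4 was called higher (0.28). In that fit 4059 of 14751 tested genes were called lower and 3209 higher. With all libraries these were 3489 and 3467 of 14683. Without combination replicate 4, MEF2D was called lower at −0.21 (edgeR adjusted p = 0.00267) and SIK3 alone was called higher. There 3980 of 14738 tested genes were called lower and 2802 higher. MEF2C and HDAC9 were called lower whichever of the 3 combination libraries was left out.

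**Figure D4:**
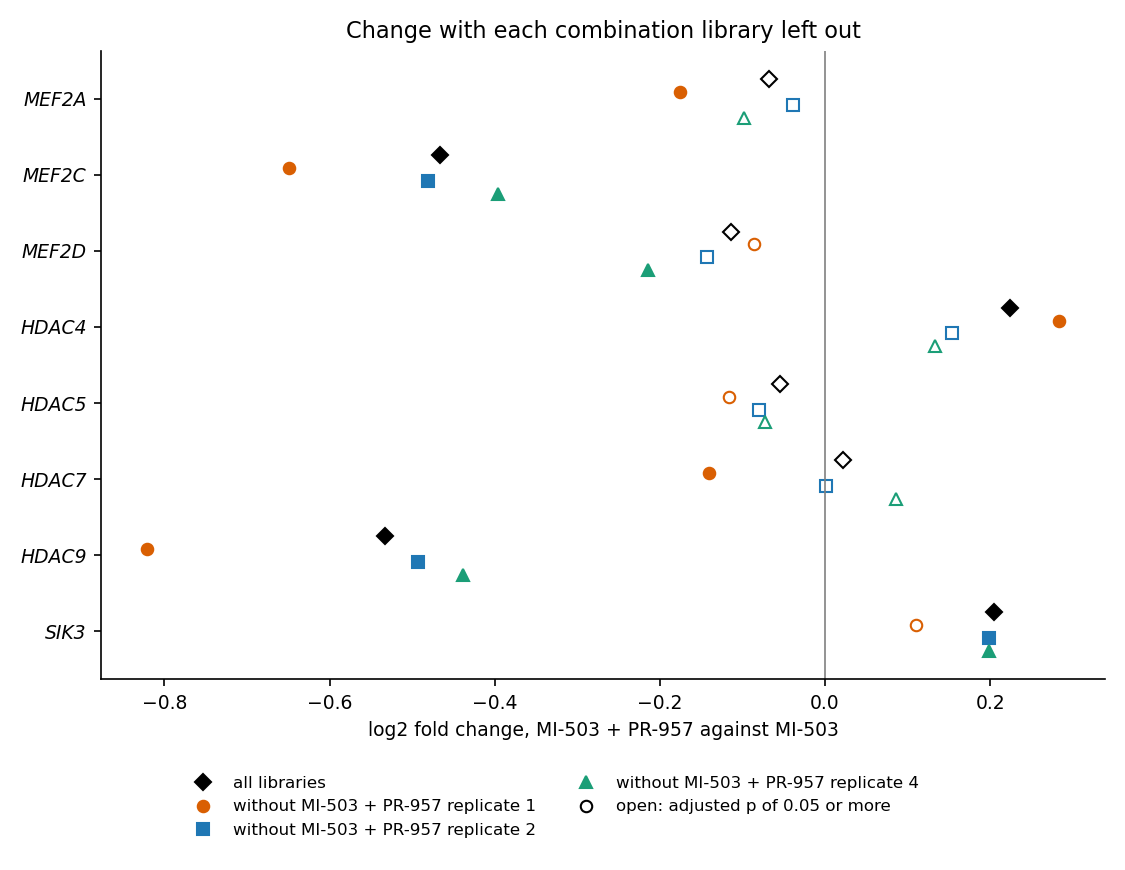
Log2 fold change of each gene in the combination against MI-503 (horizontal axis) with all libraries and with each combination library left out in turn. Filled markers passed an edgeR adjusted p of 0.05. Leaving out replicate 1 moves HDAC9 from −0.53 to −0.82, turns HDAC7 from 0.02 to −0.14 and takes SIK3 from 0.21 to 0.11.

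Genes with the pattern most like that of MEF2C were PBX3, EFNA5, DLX5, MBNL1-AS1 and SP9, by the distance between centred log2 CPM profiles over 11 libraries and among 10041 genes averaging 5 CPM or more. PBX3, a homeodomain partner of HOX proteins, was nearest at a distance of 0.49. It went from 79.0 ± 4.81 CPM in DMSO to 19.5 ± 1.5 CPM in MI-503 and 16.3 ± 2.46 CPM in the combination. DLX5, a homeobox gene, showed a deeper last step, from 71.1 ± 6.02 to 20.3 ± 1.74 and 10.8 ± 2.64 CPM. All 5 genes were called lower with MI-503, between −1.56 and −2.03 (29.3% of all tested genes were called lower). That follows from choosing them by their likeness to MEF2C in these libraries. Pearson correlations with MEF2C lay between 0.98 and 0.99, which are descriptions over libraries that share the 3 groups. When ranked by correlation instead, 0 of these 5 were among the first 5. HDAC9, the only other gene beyond 0.5 on the log2 scale, was most like CCNG1 (distance 0.19), THSD7A (0.21) and MSI2 (0.25), the RNA-binding protein Musashi 2. MSI2 was at 64.4 ± 0.94 CPM in DMSO, 74.9 ± 0.91 CPM in MI-503 and 49.7 ± 8.19 CPM in the combination.

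Because counting ignored strand and left out fragments shared between genes, neighbours of the members were read as well. Exons of MEF2C-AS1, an antisense RNA, share 2.38% of the exon bases of MEF2C. It fell from 4.65 ± 0.53 CPM to 2.25 ± 0.58 CPM with MI-503 (−1.06, SE 0.18, edgeR adjusted p = 1.03e-04) and 1.88 ± 0.48 CPM with the combination (−1.31, SE 0.20, edgeR adjusted p = 1.68e-05). Where a gene and its antisense partner overlap, counts without strand cannot tell their reads apart. MEF2C-AS2 had at most 1 fragment per group. LYSMD4 shares 12.7% of the exon bases of MEF2A and did not pass in any comparison, with 6.31 ± 1.05, 5.41 ± 0.63 and 5.69 ± 0.20 CPM. HDAC4-AS1, which shares 0.4% of the exon bases of HDAC4, was at 0.52 ± 0.19, 0.69 ± 0.23 and 0.50 ± 0.15 CPM. SLC48A1, a heme transporter gene on the opposite strand, shares 32 exon bases with HDAC7 and rose from 14.9 ± 0.69 to 35.1 ± 2.33 and 78.5 ± 4.96 CPM. MEF2D, HDAC5, HDAC9 and SIK3 share no exon bases with another gene.

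Kinases that act on class IIa deacetylases were described next. Of 16 genes, 11 were tested. With MI-503, 3 were called higher and 2 lower (22% and 29.3% over all tested genes), with a list median of −0.08 against −0.03 over all tested genes. CAMK1D, a calcium/calmodulin-dependent kinase, rose from 40.2 ± 1.37 to 61.6 ± 0.52 CPM (0.61, SE 0.04, edgeR adjusted p = 1.09e-08) and fell from there to 50.9 ± 2.66 CPM in the combination (−0.27, SE 0.05, edgeR adjusted p = 1.77e-04). CAMK2G was at 73.5, 68.3, 69.3 and 72.2 CPM in DMSO, 100.2, 96.3, 103 and 104.9 CPM in MI-503, and 158, 139 and 157 CPM in the combination. It rose without overlap in both steps, by 0.51 with MI-503 (SE 0.05, edgeR adjusted p = 2.23e-07) and by 0.58 from there to the combination (SE 0.05, edgeR adjusted p = 1.05e-07). SIK2, the closest relative of SIK3 that was tested, fell with MI-503 by 0.21 (SE 0.06, edgeR adjusted p = 0.0104), and SIK1 was near 0 in all groups. With the combination against DMSO, 6 kinases were called higher and 2 lower (31.7% and 32.8% over all tested genes), and against MI-503 4 and 2 (23.6% and 23.8%). CAMK2A, one of the 6 and one of the 4, rested on 3 fragments over the 4 DMSO libraries and 1 over the 4 MI-503 libraries. Each combination library held 13 to 25. It passed the count filter only through the combination libraries, so its 2 calls carry no weight and no fold is given.

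The 14-3-3 proteins and the exportin XPO1, which carry phosphorylated deacetylases out of the nucleus, comprised 6 tested genes. Of these, 4 were called lower with MI-503 (29.3% of all tested genes were), 5 with the combination against DMSO (32.8%) and 2 between the treated groups (23.8%), and the others were not called. The list medians were −0.25, −0.33 and −0.08 against −0.03, 0.01 and 0.00 over all tested genes. YWHAQ fell from 114 ± 3.93 to 92.8 ± 2.35 CPM with MI-503 (−0.29, SE 0.04, edgeR adjusted p = 2.24e-05) and to 73.3 ± 3.73 CPM with the combination. YWHAG went from 339 ± 14.2 to 278 ± 10.2 CPM with MI-503 (−0.29, SE 0.05, edgeR adjusted p = 4.97e-05) and stood at 294 ± 15.9 CPM in the combination. XPO1 fell by 0.25 with MI-503 (SE 0.04, edgeR adjusted p = 1.35e-04). YWHAE was at 0.087 CPM or less on average, its exons stand on 2 contigs in the count tables, and multi-mapping fragments were left out. The part of this in its level was not tested.

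Of the corepressors that class IIa deacetylases recruit, NCOR1, a scaffold protein, fell by 0.29 with MI-503 (SE 0.04, edgeR adjusted p = 1.28e-05), from 208 ± 8.57 to 170.0 ± 2.20 CPM, and stood at 164 ± 6.04 CPM in the combination. HDAC3, the catalytic subunit bound by that scaffold, was not called in any comparison.

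Activating inputs of MEF2 were called in both directions. Of 10 tested genes 3 were higher and 4 lower with MI-503 (22% and 29.3% over all tested genes), 5 and 5 with the combination against DMSO (31.7% and 32.8%), and 3 and 4 between the treated groups (23.6% and 23.8%). The list medians were 0.02, −0.02 and 0.00. The calcineurin subunits PPP3CB and PPP3R1, parts of a calcium-dependent phosphatase that activates MEF2, fell with MI-503 by 0.30 (SE 0.04, edgeR adjusted p = 3.34e-06) and 0.29 (SE 0.04, edgeR adjusted p = 4.57e-06). With the combination they fell by 0.50 and 0.49. MAPK7, the kinase ERK5 that activates MEF2C, rose by 0.19 with MI-503 and 0.52 with the combination. The CRTC coactivators, other substrates of salt-inducible kinases, comprised 3 tested genes, of which 2 were higher and 1 lower with MI-503, where 51.4% of all tested genes were called. CRTC1 rose by 0.20 (SE 0.05, edgeR adjusted p = 0.00314) and CRTC3 fell by 0.24 (SE 0.07, edgeR adjusted p = 0.00630). With the combination against DMSO and against MI-503, CRTC1 and CRTC2 were called higher.

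Genes known as MEF2 targets in blood cells were read in the same way. Of 8 tested genes 5 were called higher with MI-503 (22% of all tested genes were), with a median of 0.40 against −0.03 over all tested genes. NR4A1, KLF2 and HHEX did not pass. With the combination against DMSO 6 were higher and 1, HHEX, was lower (31.7% and 32.8% over all tested genes). Between the treated groups 4 were higher, and KLF4, LYL1 and HHEX were lower (23.6% and 23.8%). The list was written with earlier results of these data known. JUN, a subunit of the AP-1 transcription factor, was at 2.53, 3.12, 2.85 and 3.08 CPM in DMSO, 16.3, 16.4, 18.9 and 17.6 CPM in MI-503, and 17.6, 23.7 and 25.8 CPM in the combination. The treated groups lay far above DMSO and overlapped with each other. JUN rose by 2.58 with MI-503 (SE 0.13, edgeR adjusted p = 1.21e-10) and by 0.36 from there (SE 0.11, edgeR adjusted p = 0.0101), a step lost without combination replicate 2 (0.28, edgeR adjusted p = 0.0804) or 4 (0.20, edgeR adjusted p = 0.140). IL7R, the interleukin 7 receptor, rose by 2.06 with MI-503 (SE 0.12, edgeR adjusted p = 4.40e-10) and by 1.80 from there to the combination (SE 0.09, edgeR adjusted p = 1.05e-10).

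KLF2, a zinc-finger factor of quiescent lymphocytes and endothelium, was named after its values and its MEF2 box were seen. It stood at 7.06, 6.34, 9.15 and 7.07 CPM in DMSO, at 5.83, 6.80, 7.10 and 6.76 CPM in MI-503, and at 37.7, 60.01 and 58.2 CPM in the combination. DMSO and MI-503 overlapped, and the combination lay above both. Its log2 fold change with MI-503 was −0.15 (95% interval −0.49 to 0.19, edgeR adjusted p = 0.457), and from MI-503 to the combination it rose by 2.96 (SE 0.14, edgeR adjusted p = 9.32e-11). Among the list members with a window, JUN and KLF2 held a MEF2 box, and no window was used for LMO2. JUN was called higher with MI-503 (2.58) and less firmly from there (0.36). KLF2 was not called with MI-503 and rose from there to the combination. Of 10694 tested genes with a window, 242 held a box. Of these, 23.6% were called higher and 31.0% lower with MI-503, against 22% and 29.3% of all tested genes, with or without a window. With the combination against DMSO the shares were 31.4% and 35.5%, against 31.7% and 32.8%. Between the treated groups they were 19.8% and 27.3%, against 23.6% and 23.8%. These shares describe a set chosen after values were seen and carry no test.

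**Figure D5:**
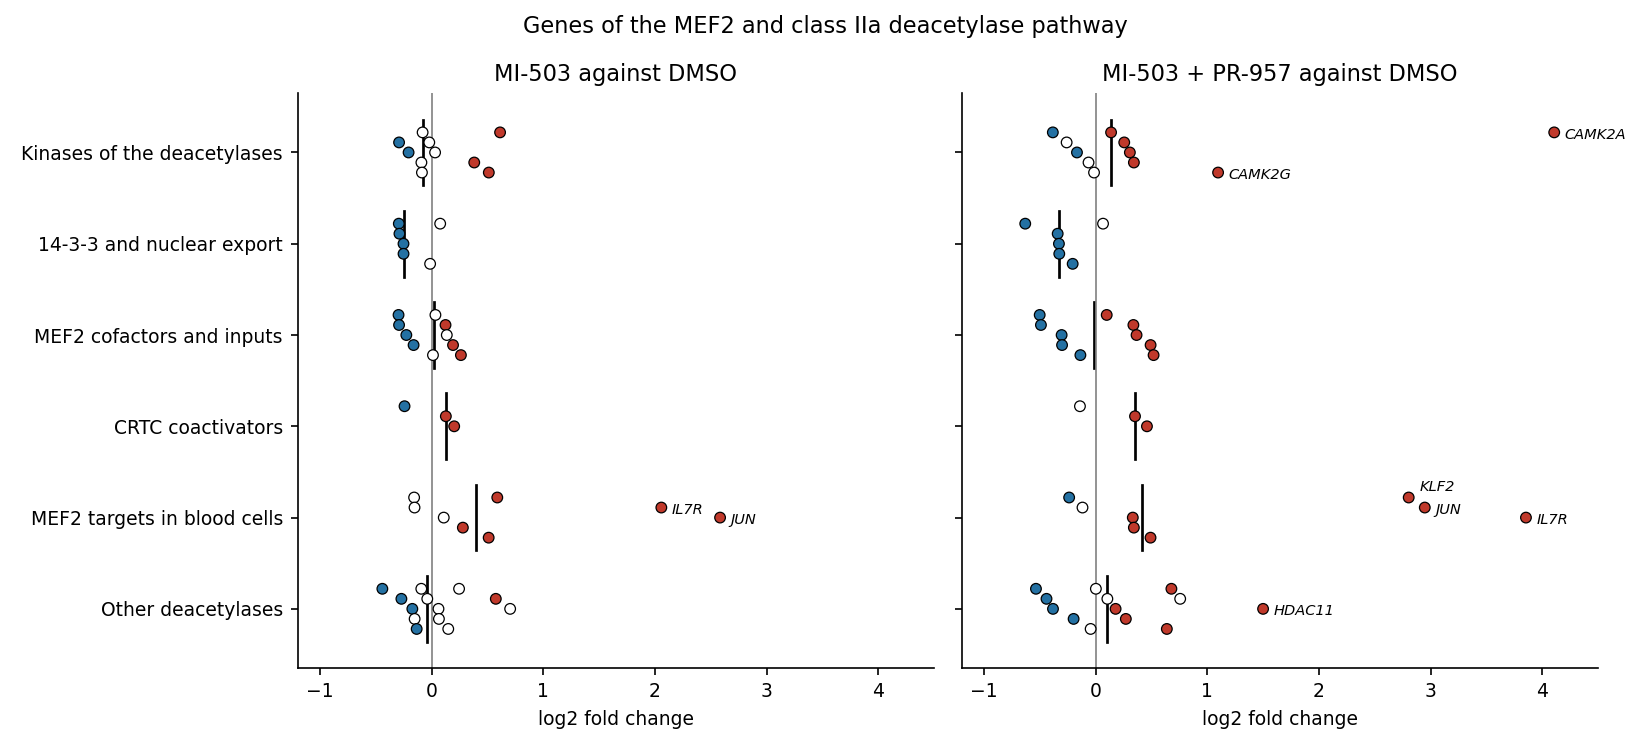
Log2 fold change (horizontal axis) of each tested gene of 6 lists of the pathway with MI-503, left, and the combination, right, against DMSO. Red and blue points were called higher and lower (edgeR adjusted p under 0.05), open points were not called, vertical bars are list medians, and vertical positions within a list only spread the points. The 14-3-3 and export genes have no call above 0, JUN and IL7R lie at 2.58 and 2.06 with MI-503, KLF2 joins them at 2.80 with the combination, and CAMK2A rests on 3 fragments in DMSO. CAMK2A passed the count filter only through the combination libraries.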

How the data were processed

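RNA had been extracted from MOLM-13 cells with an RNeasy MinElute kit, and libraries were made with a TruSeq RNA kit. Per the submitters' processing notes, reads were trimmed with Trimmomatic 0.39 and aligned to hg38 with STAR 2.7.10a. Per the file headers, the authors counted fragments over RefSeq exons with featureCounts 2.0.1, without strand. Multi-mapping fragments and those overlapping several genes were left out. The criteria of a filter on the alignments are unstated. Deposited values are raw counts per gene. The authors' tables of log2 fold changes and p-values from DESeq2 were not used.

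Counts were analysed in R 4.3.3 with edgeR 4.0.16. A joint model held the 11 libraries, with group means, TMM factors (0.956 to 1.06) and filterByExpr (minimum count 10). Contrasts were tested by quasi-likelihood, p-values were adjusted over 14683 genes after Benjamini and Hochberg, and genes were called at an adjusted p under 0.05. The biological coefficient of variation was 6.14%, and all groups shared 1 estimate of the spread. Between libraries of a group, chi-square per degree of freedom was 19.9 and 34.4 for the pairs with combination replicate 1. The other pairs gave 1.72 to 5.99. The fit with 2 groups only leaves the third group out. DESeq2 1.42.0 and limma 3.58.1 (voom) served as alternatives, beside other scalings, filters, a threshold of 0.01, 2 groups only, a replicate block and each library left out. Ratios used counts plus 0.5 and an exact permutation test. The edgeR step was tested on simulated data. Python 3.11.15 drew the figures.

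Same-numbered libraries of MI-503 and the combination deviated together over genes, with correlations from 0.141 to 0.211 in 3 of 3 pairs. The rule used here would pair them, but the labels name no shared batch. The main tests were therefore run without pairing, with the replicate block as an alternative. MI-503 replicate 3 and combination replicate 4 reached 0.269, while 5 of 6 libraries correlated best with their own number. Same-numbered libraries of DMSO and either treated group did not deviate together, with correlations over 0.1 in 2 of 4 and 1 of 3 pairs. DMSO replicate 2 and MI-503 replicate 1 reached 0.317. The correlations thus do not settle whether libraries were paired. The block changed no member's call between the treated groups.

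Named genes were the 8 members, the 5 genes nearest to MEF2C and 3 nearest to other members beyond 0.5 (log2), genes sharing exon bases, and the 2 genes of each list with the smallest adjusted p with MI-503. SIK2, XPO1, HDAC3, MAPK7, NR4A1, HHEX, KLF4, LYL1, CAMK2A, FCGR1A, LYZ and KLF2 were added after their values were seen. The counts of the corepressor list are not reported here. Members, lists and the MEF2C ratios were chosen with earlier results of these data known. Promoters are from RefSeq (GRCh38.p14), matched by symbol for 7 of 8 members. Depth per library limits counting error only.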

Additional observations from a re-analysis of the deposited data

Results flagged for a closer look

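MEF2C in MI-503 replicate 1, at 48.5 CPM, lay below the other 3 MI-503 libraries, which stood between 52.6 and 53.5 CPM. Its gap to the nearest of them was 0.83 of the range of the group, just past Dixon's 95% critical value for 4 samples, which is also 0.83 when rounded. Chance flags about 1 in 20 groups, and 16 groups of 4 libraries were tested here, of which 1 was flagged. Without this library MEF2C was still called lower with MI-503 (−1.94, edgeR adjusted p = 2.71e-10).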

How the results depend on the processing

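MEF2C was called lower in the 3 comparisons under every alternative fit run here. With MI-503 against DMSO, the number of members called higher went from 2 to 4 with RLE factors or no filter. It went to 5 with upper-quartile factors, the stricter filter or 2 groups only. It ranged from 2 to 5 when single libraries were left out, 5 being reached without any 1 of the combination libraries. Calls over all tested genes moved too, from 3235 of 14683 higher in the main fit. They were 3545 of 14683 with RLE factors, 3583 of 26817 with no filter and 3968 of 14683 with upper-quartile factors. The stricter filter gave 3569 of 12535 and 2 groups only 4079 of 13904. Without combination replicates 1, 2 and 4 in turn they were 4141 of 14751, 3673 of 14879 and 3800 of 14738. Without combination replicate 1, HDAC7 (0.20), HDAC9 (0.26) and SIK3 (0.13) were then called. Between the treated groups, leaving out single libraries gave 1 to 2 members higher and 2 to 4 lower. Over all 14470 to 14879 genes tested in these fits, 2578 to 3485 were called higher and 3145 to 4059 lower. HDAC7 ranged from −0.14 without combination replicate 1 to 0.086 without replicate 4. The combination against DMSO kept its counts within 1.5 times, although HDAC9 was lost with upper-quartile factors (−0.25, edgeR adjusted p = 0.0725) and with 2 groups only (−0.31, edgeR adjusted p = 0.0547). The cause was not tested.

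With libraries left out, the log2 ratio of MEF2C to MEF2A ranged from −2.01 to −1.94 with MI-503, from −2.44 to −2.27 with the combination and from −0.46 to −0.29 between them, and that to MEF2D from −1.76 to −1.69 with MI-503 and from −2.27 to −1.91 with the combination and from −0.55 to −0.20 between them, where fewer samples raise the smallest p that permutations can give. With the replicate block the ratio to MEF2A was −1.97, −2.42 and −0.41 and that to MEF2D −1.71 and −2.13, each at an adjusted p of 0.3 in an exact permutation test, since sign flips over 3 or 4 pairs cannot pass 0.05. In the edgeR fit with the replicate block, HDAC7 was called with MI-503 (0.16, adjusted p = 0.0417) and lost with the combination against DMSO (0.16, adjusted p = 0.0514), and it changed no other call of a member. Ranking by correlation kept 0 of the 5 genes nearest to MEF2C. Depth limits MEF2B, HDAC11, CAMK2A and the antisense RNAs most.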

Other observations

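Deacetylases of other classes were read as a comparison for the class IIa genes. Of 13 tested genes, 1 was called higher and 4 lower with MI-503 (22% and 29.3% over all tested genes), with a median of −0.04 against −0.03 over all tested genes. HDAC6, the cytoplasmic tubulin deacetylase, rose from 39.8 ± 1.79 to 59.3 ± 1.96 CPM (0.58, SE 0.05, edgeR adjusted p = 1.73e-07), and SIRT1, a NAD-dependent deacetylase, fell from 55.97 ± 0.29 to 41.2 ± 1.25 CPM (−0.44, SE 0.04, edgeR adjusted p = 1.64e-07). With the combination against DMSO, 5 were called higher and 4 lower (31.7% and 32.8% over all tested genes). The class I enzymes HDAC1 and HDAC2, singled out after their values were seen, fell by 0.44 and 0.53 there, and HDAC2 went from 249 ± 4.65 CPM in DMSO to 234 ± 6.62 CPM in MI-503 and 172 ± 9.07 CPM in the combination. HDAC11, at 0.33 to 0.66 CPM in the DMSO and MI-503 libraries, was at 1.02 to 1.75 CPM in the combination (1.25 against MI-503, SE 0.26, edgeR adjusted p = 6.99e-04).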
